A study of Mus musculus with 20 samples.

Results

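The nuclear-encoded subunits of the mitochondrial respiratory chain were described in mouse multiple myeloma cells during 24 h of bortezomib. Members were all genes whose platform symbol starts with Ndufa, Ndufb, Ndufc, Ndufs, Ndufv, Uqcr or Atp5, together with Sdha to Sdhd, Cyc1 and the structural subunits among Cox4 to Cox8, without the Ndufaf assembly factors and without Cox6a2. This took 79 of 19057 genes named by the array, measured with 122 probes. The symbols placed 35 genes in complex I, 4 in complex II, 8 in complex III, 14 in complex IV and 16 in complex V. The other 2, Cox7a2l and the pseudogene entry Ndufs5-ps, were not counted in these complexes and are given apart. Ndufa4 was kept under complex I by its symbol, although the protein is now assigned to complex IV.

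The 2 lines, 589bm and 595sp, came from Bcl-XL/Myc double transgenic animals on a background of FVBN crossed with BL/6, so every culture carries both transgenes. Each line was grown as a culture sensitive to bortezomib, an inhibitor of the proteasome used against multiple myeloma, and as a culture resistant to it. Every culture was sampled at 0, 2, 8, 16 and 24 h of 33 nM bortezomib with 1 array a time, and the 2 lines are the replicates of each group. There was no untreated array after 0 h, so the effect of the drug cannot be told apart from that of time in culture.

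The respiratory chain passes electrons from NADH (complex I) and succinate (complex II) through ubiquinone to complex III, cytochrome c and complex IV, which reduces oxygen. Complexes I, III and IV pump protons across the inner mitochondrial membrane, and complex V uses the gradient to make ATP. Most subunits are encoded in the nucleus and imported as proteins, and the core of every complex except complex II also holds subunits encoded by mitochondrial DNA. The nuclear genes share transcription factors, among them NRF1, GABP (of which GABPA is the DNA-binding subunit) and YY1. Plasma cells, from which myeloma arises, use this machinery while they make and secrete large amounts of antibody.

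On the 589bm resistant 2 h array, 0.144% of probes exceeded 2 times the array's median, against 13.4% to 20.3% on the other 19 arrays, and that array was left out. The resistant 2 h values therefore rest on 595sp alone. Mean raw signal on the 19 arrays ranged from 361 to 735, and the nearest array of each, by correlation, came from the same culture. For resistant 595sp, sensitivity or time in the sample characteristics conflicts with the titles of its 5 arrays, and the titles were used. Of the plasma cell markers, Mzb1 had a median log2 signal of 14.24, Xbp1 11.28 and Irf4 8.65, Sdc1 6.97 and Prdm1 6.44 beside the filter limit of 6.47, while Tnfrsf17 and Jchain did not pass the brightness filter. All 5 B cell markers with a probe were kept, and 3 of the 5 were above the filter limit on every array. Cd79b had a median of 12.10, Cd22 7.74 and Ebf1 7.59, with Pax5 at 6.67 and Ms4a1 at 6.63 near the limit. The summed signal of the list was between 3766 and 8080 in the sensitive and between 3575 and 5772 in the resistant arrays. Summed marker signal in the sensitive and resistant arrays ranged from 869 to 3148 and from 993 to 2015 for T cells (1 of 7 genes above the filter limit on every array), and from 636 to 2038 and from 656 to 828 for macrophages (1 of 7). No erythroid or stromal marker stayed above the limit on every array.

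The promoters of 4 members whose values are described below are shown because each holds the core motif of GABP shortly before the start of transcription. They were chosen after the motif matches and the values were seen. Each line gives 80 bases before the start, 5′ to 3′ on the strand of the gene, from RefSeq on GRCm38.p6, with the motif in capitals.
Uqcr11, complex III, chr10:80406822-80406901, minus strand: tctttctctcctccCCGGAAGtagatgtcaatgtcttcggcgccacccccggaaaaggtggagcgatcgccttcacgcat
Uqcrh, complex III, chr4:116075071-116075150, minus strand: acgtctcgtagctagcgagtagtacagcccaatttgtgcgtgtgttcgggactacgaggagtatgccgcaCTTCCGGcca
Sdhd, complex II, chr9:50603850-50603929, minus strand: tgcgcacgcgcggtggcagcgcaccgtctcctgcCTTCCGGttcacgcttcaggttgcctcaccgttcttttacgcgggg
Cox6b1, complex IV, chr7:30626115-30626194, minus strand: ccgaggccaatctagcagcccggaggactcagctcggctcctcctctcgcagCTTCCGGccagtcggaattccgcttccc
In Uqcr11 the motif reads CCGGAAG on the printed strand, and in the other three it lies on the opposite strand. Windows from 250 bases before to 50 bases after the start were matched for 65 of the 79 members and searched on both strands. The GABPA motif CCGGAAG was present for 16 members (24.6%), against 9.93% of 27025 genes with a promoter. The palindromic NRF1 consensus was present for 5 members (7.69%), against 1.07%, and the YY1 consensus for 5 members (7.69%), against 0.995%. The NRF1 consensus was found around the starts of Atp5g2, Atp5k, Cox6a1, Ndufa11 and Uqcrc1, and the YY1 consensus around those of Atp5j, Ndufa9, Ndufs4, Ndufs6 and Ndufs7. A match shows that the letters are present, and binding was not measured.

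Probe signals are given as log2 of background-corrected, quantile-normalized intensity. A gene is represented by its brightest probe among the brighter 50% of probes, and 71 of the 79 members passed this filter. The 71 had mean log2 signals from 6.95 (Atp5k) to 14.70 (Atp5b), with a median of 11.91 against 7.60 over all 11802 genes tested, and 55 were in the brightest 10%. The 8 members below the limit of 6.47 were Ndufs1, Sdha, Uqcrfs1, Cox4i2, Cox6b2, Cox7b2, Cox8b and Cox8c. Their highest mean was 6.45 (Cox6b2), and the first members inside the limit were Atp5k at 6.95 and Atp5md at 7.10. Cox4i2, Cox6b2, Cox8b and Cox8c are tissue-restricted isoforms of complex IV subunits, whereas Ndufs1, Sdha and Uqcrfs1 are core subunits of complexes I, II and III. Signals of different probes are not comparable as transcript levels, and no mitochondrially encoded subunit had a named probe.

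In the sensitive cultures, some subunit genes of each of the 5 complexes fell by 24 h. Of the 71 genes tested, 19 fell and 2 rose at 24 h against 0 h, while 6.24% of all genes fell and 8.24% rose (limma, Benjamini-Hochberg adjusted p under 0.05, n = 2 lines). The median change of the subunit genes was -0.34 on the log2 scale, against 0.02 for all genes, and 59 of the 71 were below 0, 53 of them in both lines. No subunit gene passed at 2 h or at 8 h (4 and 10 at an unadjusted p under 0.05), when 0% of all genes passed at 2 h, and 1.03% fell and 1.53% rose at 8 h. At 16 h 8 fell and 2 rose, against 4.74% and 5.82% of all genes. Of the 8, 6 were also among the 19 at 24 h, namely Uqcr11, Ndufa3, Sdhb, Ndufb10, Cox7a2 and Ndufb2. Among tested markers of other cells, 2 of 3 for T cells (Cd3g and Cd2), 2 of 5 for B cells, 1 of 4 for macrophages, 1 of 3 for erythroid cells and 0 of 2 for stromal cells also fell at 24 h, 0 of 5 for plasma cells did, and their part in the result was not tested. The 4 times share their 0 h arrays, and in bulk RNA fewer expressing cells and less RNA per cell cannot be told apart. The 24 h count rested on single arrays, with 2 subunit genes passing without the 589bm 0 h array, 2 without the 595sp 24 h array, 7 without the 595sp 0 h array and 8 without the 589bm 24 h array. With no replicate block for the culture, or with the dim array included, 0 passed at 16 h and at 24 h.

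**Figure D1:**
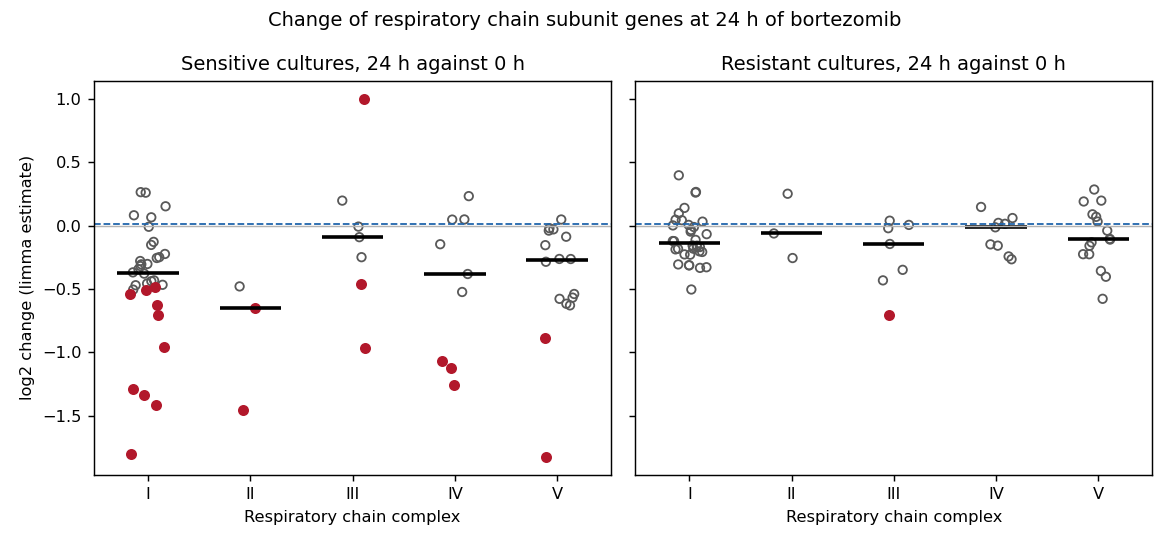
Log2 change at 24 h against 0 h (vertical axis, limma estimate over 2 lines) of the tested subunit genes of complexes I to V, in the sensitive (left) and resistant (right) cultures. Each point is a gene, filled red where the adjusted p was under 0.05; black bars are medians of a complex and the dashed line is the median of all genes. In the sensitive cultures the medians lie between -0.65 (complex II) and -0.09 (complex III), and in the resistant cultures Uqcr11 is the filled point at -0.70.

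Complex I, which oxidizes NADH, contributed 10 of the 19 falls, and none of its 34 tested genes rose at 24 h (median change -0.37). Most of the 10 were accessory subunits of the membrane arm, named Ndufb. Ndufb10 had log2 signals of 10.35, 9.17, 9.54, 7.99 and 8.50 at 0, 2, 8, 16 and 24 h in sensitive 589bm, and of 10.07, 10.09, 8.55, 9.25 and 8.30 in sensitive 595sp. The 24 h arrays of both lines lay below both 0 h arrays, and the change was -1.80 (SE 0.36, limma adjusted p 0.0033). Ndufb5 fell by 1.41 (SE 0.37, limma adjusted p 0.0185), and Ndufb9 fell by 1.33 (SE 0.34, limma adjusted p 0.0168). The other falls in complex I were Ndufb2, Ndufb4, Ndufb7, Ndufc2, Ndufa3, Ndufa5 and the core iron-sulfur subunit Ndufs7, with changes from -1.29 to -0.48.

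Complex II, succinate dehydrogenase, is the entry point for electrons from the tricarboxylic acid cycle, and 2 of its 3 tested genes fell. Sdhb, the iron-sulfur subunit, had log2 signals of 11.48, 11.20, 10.94, 10.78 and 10.93 from 0 to 24 h in sensitive 589bm and of 10.85, 10.73, 10.32, 10.07 and 10.09 in sensitive 595sp. Each line was lower at every later time than at 0 h, although 595sp at 0 h lay below 589bm at 24 h, so the groups overlapped. The change at 24 h was -0.65 (SE 0.17, limma adjusted p 0.0155). Sdhd, a membrane anchor of the complex, went from 8.38 to 6.91 in 589bm and from 9.19 to 7.75 in 595sp, a change of -1.45 (SE 0.41, limma adjusted p 0.0293). Sdhc, the other anchor, fell at 16 h by 0.76 (SE 0.21, limma adjusted p 0.0306) and stood at -0.48 at 24 h without passing.

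Complex III, the ubiquinol to cytochrome c reductase, had 2 falls and 1 rise among 7 tested genes, with a median change of -0.09. Uqcr11, a small accessory subunit, had log2 signals of 13.07, 13.20, 12.52, 12.23 and 12.06 from 0 to 24 h in sensitive 589bm and of 13.02, 12.86, 12.46, 11.99 and 12.10 in sensitive 595sp. The arrays from 8 h on were below all 0 h and 2 h arrays, and the change at 24 h was -0.96, a 1.95-fold fall (SE 0.16, limma adjusted p 0.000788). It passed with each of the 19 arrays left out in turn. Uqcrh, the hinge protein at cytochrome c1, fell by 0.46 (SE 0.14, limma adjusted p 0.0436), a call that was lost in 15 of 25 alternatives. Uqcrq, a small subunit near the ubiquinone site, had log2 signals of 8.35, 8.59, 9.12, 9.70 and 9.34 in sensitive 589bm and of 7.87, 7.98, 8.66, 8.69 and 8.89 in sensitive 595sp. Its arrays from 8 h on were above those at 0 h and 2 h in both lines, and it rose at 24 h by 0.98 in 589bm and 1.02 in 595sp (SE of the mean 0.20, limma adjusted p 0.00303). Under median scaling that rise did not pass (adjusted p 0.122), and no subunit gene rose at 24 h while 23 fell.

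Complex IV, cytochrome c oxidase, contributed 3 falls among 9 tested genes, all in small nuclear-encoded subunits. Cox7a2, the widely expressed isoform of subunit VIIa, had log2 signals of 9.08, 8.26, 8.75, 8.03 and 7.57 in sensitive 589bm and of 8.99, 8.82, 8.15, 8.18 and 7.98 in sensitive 595sp. The 24 h arrays were the lowest of both cultures, and the change was -1.26 (SE 0.27, limma adjusted p 0.00529). Cox6c fell by 1.13 (SE 0.29, limma adjusted p 0.0179), and Cox7b fell by 1.06 (SE 0.29, limma adjusted p 0.0242). Cox7a1, the isoform of muscle and fat, ranged from 6.81 to 7.95 over all arrays and passed at no time. Cox7a2l, a relative of Cox7a2 with a role in supercomplexes of complexes III and IV, was counted apart from complex IV and rose. Its log2 signals were 11.90, 11.73, 12.41, 12.45 and 12.59 in sensitive 589bm and 10.74, 10.80, 11.51, 11.83 and 11.77 in sensitive 595sp. The change at 24 h was 0.86 (SE 0.19, limma adjusted p 0.0067), and under median scaling it did not pass (adjusted p 0.488).

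Complex V, the ATP synthase, had 2 falls among 16 tested genes, where 6.24% of all genes fell, with 15 of the 16 below 0. Atp5a1, the alpha subunit of the catalytic head, had log2 signals of 10.12, 8.26, 9.86, 8.89 and 8.19 in sensitive 589bm and of 10.13, 10.01, 8.81, 9.55 and 8.41 in sensitive 595sp. The 24 h arrays were lowest in both cultures, and the change was -1.82 (SE 0.45, limma adjusted p 0.0127), with intermediate arrays that went down and up again. Atp5md, a small membrane subunit, fell by 0.89 (SE 0.25, limma adjusted p 0.0277). Atp5b, the beta subunit that pairs with Atp5a1 in the same head, stayed between 14.16 and 14.68 in sensitive 589bm and between 14.37 and 14.96 in sensitive 595sp and did not pass. Of the isoform genes of the membrane ring, Atp5g2 and Atp5g3 did not pass at any time.

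**Figure D2:**
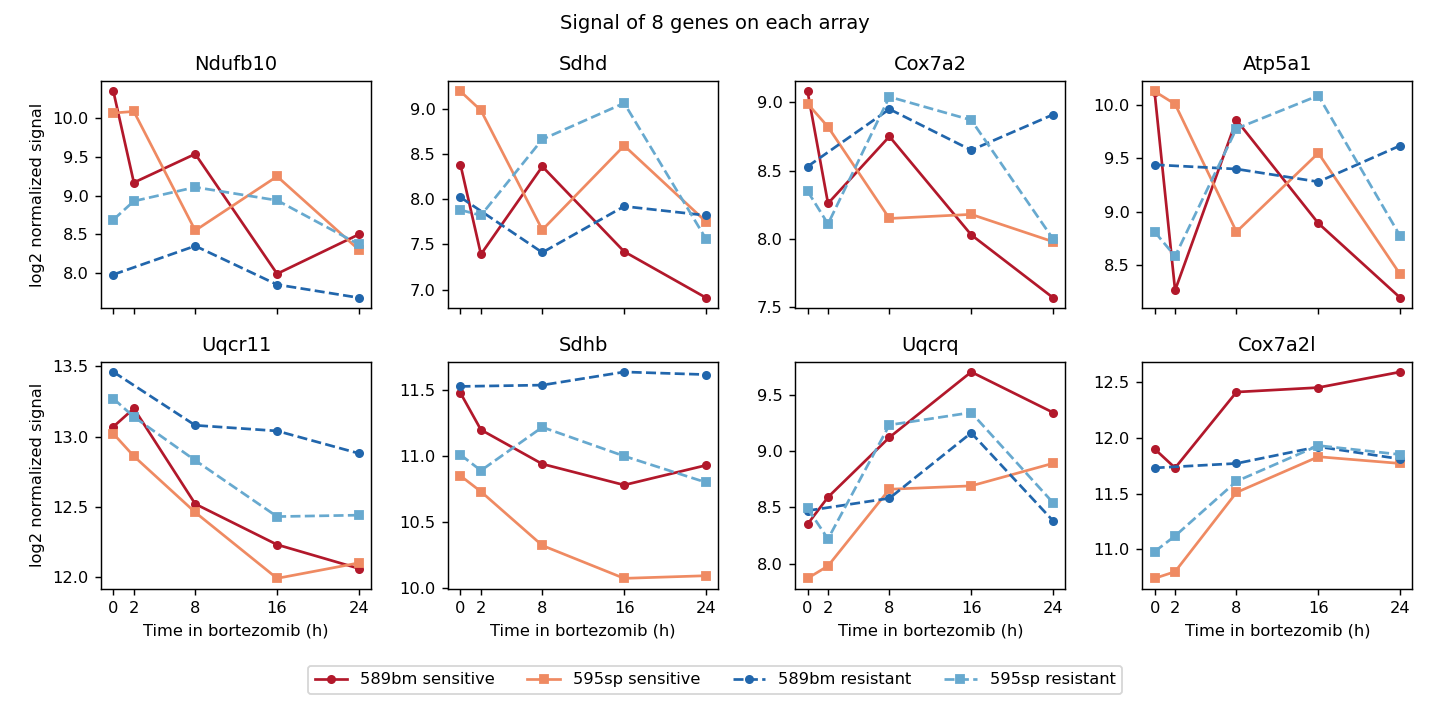
Log2 normalized signal (vertical axes, own scale for each gene) against hours in bortezomib for 8 genes, with 1 point for each of the 19 arrays. Solid lines are sensitive and dashed lines resistant cultures. Ndufb10, Sdhd, Cox7a2 and Atp5a1 (top) move down and up between neighbouring times, while Uqcr11, Sdhb, Uqcrq and Cox7a2l (bottom) change more evenly; resistant 589bm has no point at 2 h.

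The 19 falls took different courses. In sensitive 589bm, 11 of them were already between 0.75 and 1.85 below 0 h at 2 h, and all 11 were higher at 8 h than at 2 h. The same 11 were between -0.29 and 0.13 at 2 h in sensitive 595sp, and between -1.53 and -0.35 at 8 h. They were Cox6c, Atp5a1, Ndufb10, Ndufb5, Cox7a2, Ndufb9, Sdhd, Cox7b, Ndufb2, Ndufb4 and Atp5md, and for 10 of the 11 the mean log2 signal was below 10. Some ended at 24 h near the filter limit of 6.47. In 589bm and 595sp these were Ndufb4 at 6.46 and 6.77, Atp5md at 6.48 and 6.71, and Ndufb2 at 6.72 and 6.81. The other 8 falls, Uqcr11, Uqcrh, Sdhb, Ndufa3, Ndufa5, Ndufb7, Ndufc2 and Ndufs7, were between -0.27 and 0.13 at 2 h in 589bm. The limit of -0.5 at 2 h that separates them was set after the values were seen, in place of a first criterion on the later times, so the split is a description. The split holds for the brightest probes. A second probe of Ndufa5 lay below that limit, at -1.15 at 2 h in 589bm. In 589bm at 2 h, 12 of the 71 subunit genes were below that limit, as were 5.62% of all genes, and in 595sp 0 of the 71 and 0.398%.

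The median log2 signal of the 11 in sensitive 595sp was 9.02, 8.84, 8.00, 8.55 and 7.91 from 0 to 24 h, and the median raw signal of all probes on the same arrays was 208, 192, 149, 181 and 145. In sensitive 589bm the 11 had medians of 9.08, 8.17, 8.75, 7.99 and 7.57, on arrays with raw medians of 185, 170, 195, 154 and 175. In 595sp the 5 arrays had the same order in both measures, and in 589bm both went down and up together except from 16 to 24 h. In resistant 595sp the 11 had medians of 8.08, 8.11, 8.91, 8.94 and 7.77 on raw medians of 190, 187, 183, 212 and 154, which are not in the same order. In resistant 589bm at 0, 8, 16 and 24 h they had 8.02, 8.35, 7.92 and 8.01 on 164, 201, 165 and 198. There both measures went up, down and up together. The part of array brightness in the result was not tested. The 8 other genes had medians of 12.01, 12.02, 11.77, 11.74 and 11.57 in 589bm and of 12.10, 11.91, 11.80, 11.58 and 11.42 in 595sp, and these medians did not return upward after 2 h in either line. Single genes of the 8 did. Ndufc2 stood at -0.08, 0.15, 0.22 and -0.35 against 0 h from 2 to 24 h in 589bm, and at -0.27, -0.07, 0.07 and -0.66 in 595sp.

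**Figure D3:**
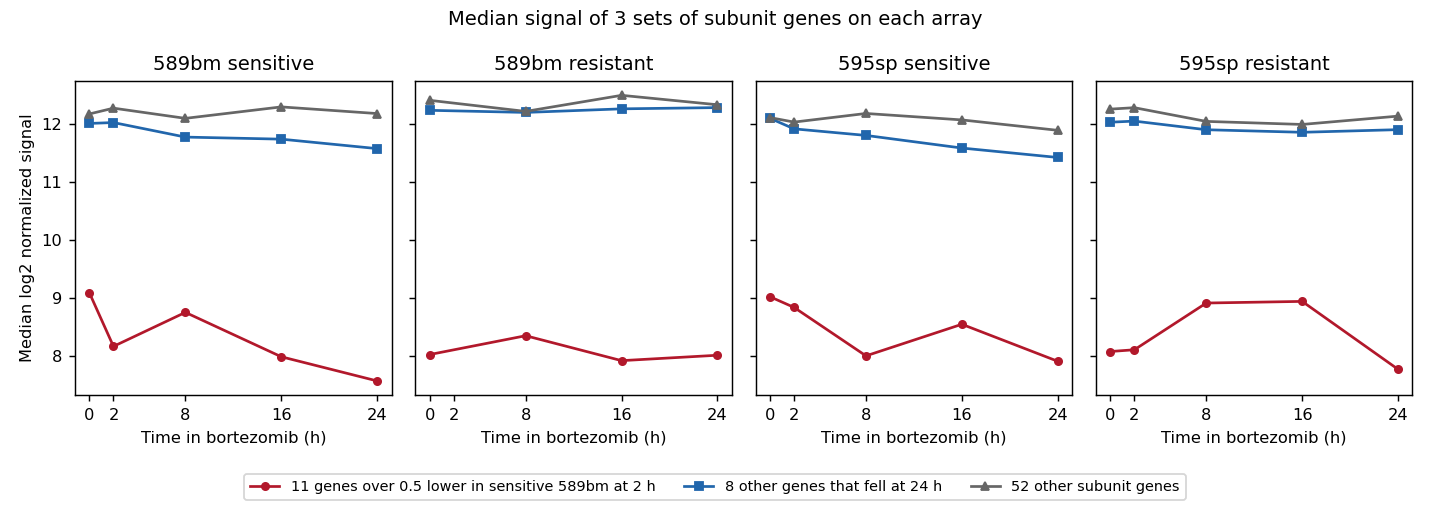
Median log2 normalized signal (vertical axis) against hours in bortezomib in each culture, for the 11 falls that were over 0.5 lower at 2 h in sensitive 589bm (red circles), the 8 other falls (blue squares) and the 52 other tested subunit genes (grey triangles). In sensitive 589bm the red points go from 9.08 to 8.17 and back to 8.75 within 8 h, and in resistant 595sp they are at 8.94 at 16 h and 7.77 at 24 h.

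Probes of the same gene did not always share a course. Several kept probes were present for 23 members, and at 24 h in the sensitive cultures all probes had the same sign for 16 of them. Of 5 passing members with several probes, 4 had the same sign in all probes, and all probes passed in 2, Ndufb10 and Ndufa5. The second probe of Ndufb10 gave -1.32 beside -1.80, and that of Ndufa5 gave -1.45 beside -0.63. The second probe of Atp5a1 stood at 0.07 beside -1.82, so the fall of that gene rests on 1 of its 2 probes. For Ndufs4, named after its values were seen, the brightest probe stood at 0.27 and 3 others at -0.32, -0.49 and -1.004. Counted over all 104 kept probes of the members, 23 fell and 2 rose at 24 h, against 5.69% and 6.37% of all kept probes. Many of these genes have processed pseudogenes, and whether a probe also binds such a copy was not tested.

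In the resistant cultures Uqcr11 was the member that passed. At 24 h 1 subunit gene fell and 0 rose, against 0.551% and 0.864% of all genes, and the median change was -0.11. At 8 h and 16 h 0 of 71 passed (limma, 4 and 12 at an unadjusted p under 0.05), against 0.0763% and 0.695% of all genes lower, and at 2 h 0 passed (1 at an unadjusted p under 0.05), as for 0% of all genes. Uqcr11 had log2 signals of 13.46, 13.08, 13.04 and 12.88 at 0, 8, 16 and 24 h in resistant 589bm and of 13.27, 13.14, 12.83, 12.43 and 12.44 from 0 to 24 h in resistant 595sp. The 24 h arrays lay below both 0 h arrays, and the change was -0.70 (SE 0.16, limma adjusted p 0.0402). That call was lost in 9 of the 19 fits with an array left out, which were those without any of the 0 h arrays, any resistant 8 h or 24 h array, or the sensitive 589bm 24 h array, and under median scaling. Uqcrq stood at 0.77 at 16 h and Cox7a2l at 0.48 at 24 h in these cultures without passing.

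Whether the cultures responded differently was tested directly. The mean change over 8, 16 and 24 h in the resistant cultures minus that in the sensitive cultures passed for 0 of the 71 subunit genes in limma (15 at an unadjusted p under 0.05), and for 0% of all genes higher and 0.11% lower. Its median was 0.07 against -0.02 for all genes. The smallest p-values belonged to Cox7a2, with a difference of 1.22 (SE 0.31, limma adjusted p 0.187), and Ndufb10, with 1.57 (SE 0.41, limma adjusted p 0.194). Sdhb differed by 0.68, in the same direction in both lines (0.67 and 0.68), without passing. These 3 genes were chosen after their values were seen. At 0 h, resistant minus sensitive signal was -2.37 in 589bm and -1.38 in 595sp for Ndufb10. It was -0.55 and -0.64 for Cox7a2, and 0.05 and 0.16 for Sdhb. At 0 h the 11 falls that were lower at 2 h in sensitive 589bm had medians of 8.02 and 8.08 in the resistant cultures. In the sensitive cultures these were 9.08 and 9.02. The part of these 0 h values in the response difference was not tested. Under median scaling the median response difference of the 71 was 0.50 against 0.14 for all genes, and 0 passed. With that scaling 2 of the 71 lay below the median of all genes, against 22 in the reported fit. The greater number of falls in the sensitive cultures is therefore not shown to be a difference between the cultures.

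Resistant and sensitive cultures were next compared within each line over the times, as 1 pair of cultures a line, so these p-values measure the spread over times and not between cultures. In 589bm 28 of the 71 subunit genes were higher in the resistant culture and 4 lower, against 10.8% and 9.36% of all genes, with a median difference of 0.27 against 0.02. The difference averages 0 h with times in bortezomib. At 0 h alone 39 of the 71 were above 0 in 589bm (median 0.11) and 39 in 595sp (median 0.03). The direction of the count in 589bm depended on the scaling between arrays. Under median scaling 0 were higher and 10 lower, with a median of 0.00 where that of all genes was -0.09. Without 1 of the 8 h arrays 7 or 9 genes passed in 589bm in place of 32, and without 1 of the 16 h or 24 h arrays 17 or 19. In 595sp 9 were higher and 7 lower, against 10.9% and 11.3% of all genes, with a median difference of 0.02. Under median scaling 5 were higher and 1 lower, and without 1 array of 0, 2, 16 or 24 h 7 to 10 passed in place of 16. Markers of other cells also differed between the cultures. In 595sp 3 of 4 macrophage, 2 of 5 B cell and 1 of 3 erythroid markers were lower in the resistant culture, of 3 T cell markers 1 was higher and 1 lower, and 1 of 5 plasma cell markers was higher. In 589bm 1 of 3 T cell and 1 of 4 macrophage markers were lower, and 2 of 5 plasma cell markers were higher. Their part in these differences was not tested.

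In 589bm the largest differences among genes that passed were for Ndufa4 (0.68, SE 0.13, limma adjusted p 0.00213), Atp5g3, an isoform of the ring-forming c subunit of ATP synthase (0.67), Uqcr11 (0.64), Uqcr10, a small subunit of complex III (0.59), and Cox6b1, which faces the intermembrane space on complex IV (0.59). Those lower in the resistant culture were Ndufb10 (-1.13, SE 0.25, limma adjusted p 0.00664), Ndufa6 (-0.54), Cox7a2l (-0.53) and Atp5j, the coupling factor of ATP synthase (-0.39). Ndufb10 had log2 signals of 7.98, 8.35, 7.85 and 7.68 at 0, 8, 16 and 24 h in resistant 589bm, below the sensitive culture at all 4 times. The second probe of Ndufb10 gave -0.15 (limma adjusted p 0.689), so this difference rests on 1 of its 2 probes.

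In 595sp the differences above 0 were led by Uqcrh (0.58, SE 0.08, limma adjusted p 0.000366), Sdhb (0.57), Ndufb6 (0.53), Ndufs6 (0.41) and Ndufa7 (0.36). Below 0, Ndufa9 came first, followed by Atp5l, a membrane subunit of ATP synthase (-0.49), Cox6b1 (-0.43), Ndufv2, a core subunit of the NADH-oxidizing part of complex I (-0.39), and Cox6a1 (-0.35). Ndufa9, an accessory subunit where the matrix arm of complex I meets the membrane, had log2 signals of 13.18, 13.12, 13.40, 13.44 and 13.33 in sensitive 595sp. In resistant 595sp the values were 12.31, 12.22, 12.30, 12.24 and 12.30. The cultures did not overlap at any time, and the difference was -1.02, a 2.03-fold lower signal (SE 0.09, limma adjusted p 1.1e-05). In 589bm the sensitive culture lay between 11.77 and 12.36 and the resistant one between 12.15 and 12.66, so sensitive 595sp was the highest of the 4 cultures.

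Both lines shared some differences and opposed each other in others. Ndufa4, Uqcr11, Ndufa12, Ndufa5, Ndufs6 and Sdhb were higher in the resistant culture of both lines, 6 of the 28 in 589bm (21.4%) and 6 of the 9 in 595sp (66.7%). Over all genes, those higher in both lines were 23.0% of the genes higher in 589bm and 22.6% of those higher in 595sp. For 595sp this is an unlike base, here and for the opposed genes below. In 589bm 28 of the 71 members were higher, against 10.8% of all genes. At 0 h the differences of the 6 ranged from 0.05 (Sdhb) to 0.48 (Ndufa12) in 589bm. In 595sp they ranged from 0.11 (Ndufa5) to 0.67 (Ndufs6). Sdhb went from 0.05 at 0 h to 0.60 at 8 h in 589bm, and from 0.16 to 0.91 in 595sp. Atp5j2, Atp5l, Cox6a1 and Cox6b1 were higher in resistant 589bm and lower in resistant 595sp, 4 of the 28 (14.3%) and 4 of 7 (57.1%), against 16.6% and 15.9% over all genes. Both sets rest on quantile normalization. Under median scaling 0 of the 71 were higher in resistant 589bm, so neither the 6 shared nor the 4 opposed genes were called. Of members with several probes, all probes passed for 2 of 15 in 589bm and for 3 of 7 in 595sp. The second probe of Cox6b1 gave 0.57 in 589bm and -0.61 in 595sp and passed in both, while that of Atp5l gave 0.27 and -0.60 and that of Cox6a1 0.02 and -0.34, without passing in 589bm. Cox6b1 had log2 signals of 13.67, 13.69, 13.96 and 13.74 in resistant 589bm against 13.36, 12.93, 13.30 and 13.11 in sensitive 589bm at 0, 8, 16 and 24 h. In 595sp at the same times it had 12.94, 12.67, 12.30 and 12.55 in the resistant against 13.20, 13.16, 13.01 and 13.16 in the sensitive culture. The resistant culture was thus the higher one at each time in 589bm and the lower one in 595sp. The difference between the lines, tested over the 4 shared times, passed with a higher value in 589bm for 14 subunit genes and a lower one for 3, against 10.7% and 8.21% of all genes. It was 1.33 for Ndufa9 (SE 0.17, limma adjusted p 1.86e-05) and 1.10 for Cox6b1 (SE 0.18, limma adjusted p 0.000245). Under median scaling 1 gene was higher and 7 lower, and the median of all genes moved to -0.20. The difference of Ndufa9 passed in every alternative that was run.

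**Figure D4:**
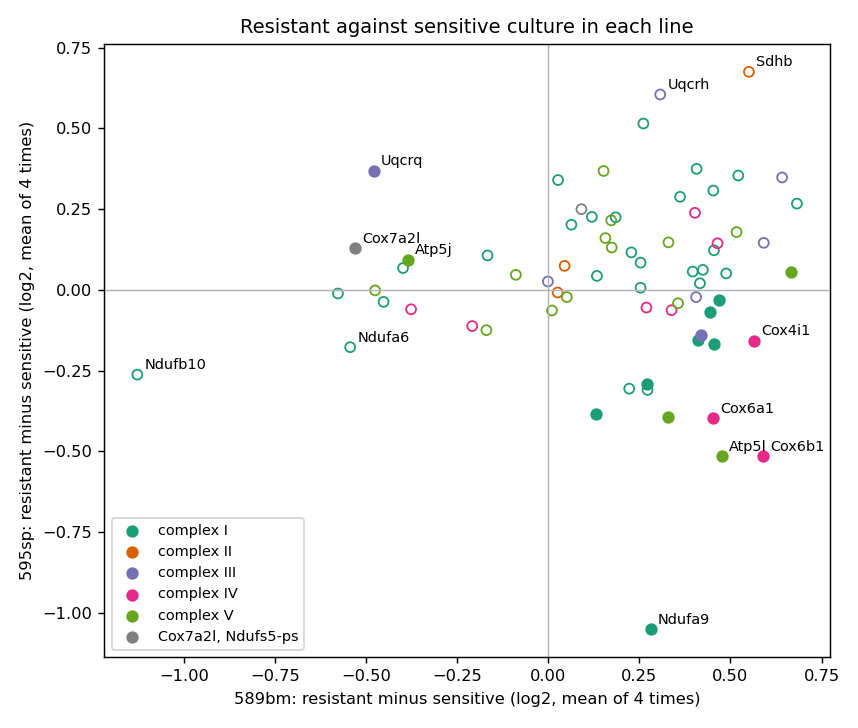
Resistant minus sensitive log2 signal in 589bm (horizontal) and 595sp (vertical), each the mean over 0, 8, 16 and 24 h, for the 71 tested genes, coloured by complex. Filled points passed the test of the difference between the lines. Ndufa9 is the lowest point, at 0.28 in 589bm and -1.05 in 595sp, and Cox6b1, Atp5l and Cox6a1 lie at the lower right.

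**Figure D5:**
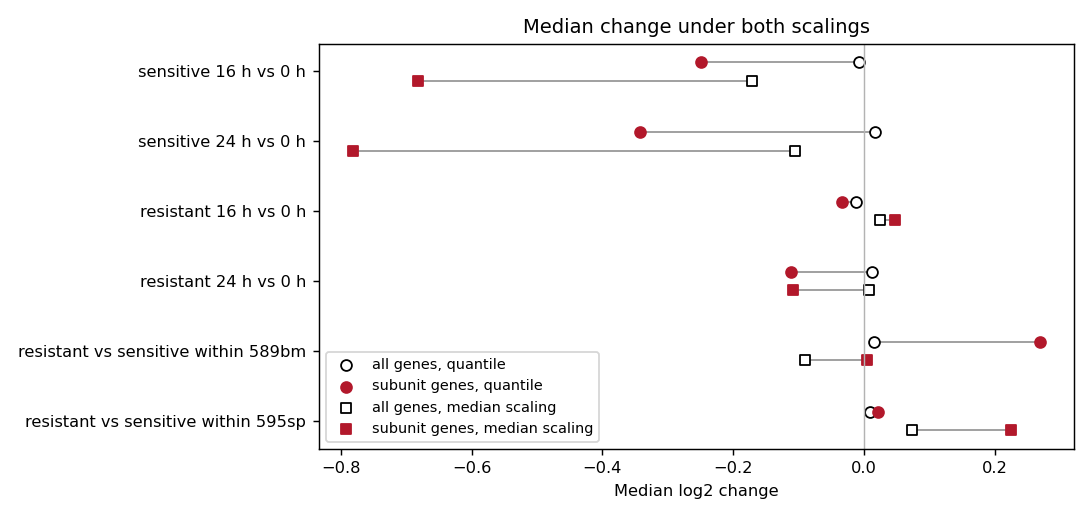
Median log2 change (horizontal) of the 71 subunit genes (red) and of all genes tested (white) in 6 comparisons (rows), with quantile normalization (circles) and median scaling (squares). In the sensitive cultures at 24 h the red points are at -0.34 and -0.78, left of the white ones, while for resistant against sensitive 589bm they are at 0.27 and 0.00.

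Genes that build or feed the respiratory chain were counted in the same fits, where 6.24% of all genes fell and 8.24% rose at 24 h in the sensitive cultures with a median of 0.02. Of the assembly factors, 9 of 44 tested fell and 0 rose at 24 h in the sensitive cultures, with a median change of -0.35. They included Cmc2 (-1.44) and Cox20 (-1.23), which act in the assembly of complex IV, and Ndufaf2 (-1.33) and Timmdc1 (-1.08), which act in that of complex I. Of the tricarboxylic acid cycle and pyruvate dehydrogenase genes, 4 of 14 fell and 0 rose (median -0.51). These were Suclg2 (-1.10) and Suclg1 (-0.58), subunits of succinyl-CoA ligase, fumarate hydratase Fh1 (-0.75) and Pdha1 (-0.72), a subunit of pyruvate dehydrogenase. Among carriers and ubiquinone synthesis genes 2 of 10 fell, Coq2 (-1.98) and Coq7 (-0.79), and Coq6 rose (0.86). Among 13 regulators of mitochondrial gene expression, 1 fell, Tfb1m, which methylates mitochondrial ribosomal RNA (-1.21), and 1 rose, the coactivator Ppargc1a (0.73), which is near the share of all genes, and the median was 0.01. These counts rested on single arrays, on the block and, for the rises, on the scaling. Under median scaling 0 carrier or ubiquinone genes and 0 regulators rose. The median of the regulators was then -0.28, where that of all genes was -0.11. With each of the 19 arrays left out in turn, 2 to 10 assembly factors, 1 to 4 tricarboxylic acid cycle genes, 1 to 4 carrier and ubiquinone genes and 0 to 2 regulators fell. Without any of the 4 sensitive arrays of 0 h or 24 h, 2 to 5 assembly factors and 1 or 2 tricarboxylic acid cycle genes fell. With no replicate block 1 carrier or ubiquinone gene and 0 of the other lists fell, and with the dim array included 0 of the 4 lists did. These repeats were chosen after the data were seen. In the resistant cultures 0 genes of these 4 lists passed at 8, 16 or 24 h (limma, with 9, 11 and 7 of 81 genes at an unadjusted p under 0.05), when 0.0763% to 0.864% of all genes passed in either direction.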

How the data were processed

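The deposited table holds 1-colour signal intensity of 45281 probes on 20 Illumina mouse arrays, not normalized between arrays, per the file headers. A second deposited table holds the authors' intensity values, quantile-normalized with a column median of 177, and served as an alternative. RNA was column-purified and biotin-labelled, per the labels' protocols; the scanner software is not given in the sources used here.

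From 19 arrays, deposited intensities were corrected by normexp (offset 50), log2-transformed and then quantile-normalized (limma 3.58.1, R 4.3.3). The brighter 50% of probes by mean signal (22641) were kept; 34885 probes had 1 gene symbol, 18 several and 10378 none, and unnamed or ambiguous probes named no gene. Normalization assumes similar overall signal distributions, so a broad shift of bright genes can change with the scaling. Tests were limma fits (eBayes with trend) with Benjamini-Hochberg adjustment over all kept probes and a threshold of 0.05, with the culture as replicate block (7 residual degrees of freedom), since the same line gives replicate 1 or 2 in every group, or with time as a term within a line (3 in 589bm, 4 in 595sp) and between lines (9). The nearest array of each came from the same culture. The code was checked on simulated data. The number of arrays limits the precision.

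Named genes were, for each complex, the 3 largest changes among passing members at 24 h in the sensitive cultures, in the same direction in both lines, and the largest in the other direction. For the other comparisons they were the 5 largest rises and 5 largest falls, and for lists the 4 largest passing changes; isoform sets could be named with them. Other members named with values, such as Ndufs4, Sdhc, Atp5b and the further genes of a count, were chosen after their values were seen. Members, lists and tests were chosen with earlier results of these data known. Alternatives were median scaling, no background correction, the authors' values, no filter, no replicate block, the 20th array included and each array left out. Promoter sequences are RefSeq's on GRCm38.p6.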

Additional observations from a re-analysis of the deposited data

Results flagged for a closer look

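The difference between resistant and sensitive cultures itself differed between the lines for 8 named members, tested as 589bm minus 595sp over the 4 shared times (limma). The difference was higher in 589bm by 1.33 for Ndufa9 (adjusted p 1.86e-05), 1.10 for Cox6b1 (adjusted p 0.000245), 0.99 for Atp5l (adjusted p 0.000206), 0.85 for Cox6a1 (adjusted p 0.0015) and 0.72 for Cox4i1 (adjusted p 0.00185). It was -0.85 for Uqcrq (adjusted p 0.0271), -0.66 for Cox7a2l (adjusted p 0.0239) and -0.48 for Atp5j (adjusted p 0.0418). The resistant culture was the higher one in 589bm and the lower one in 595sp for Cox6b1 (0.59 and -0.51), Atp5l (0.48 and -0.51), Cox6a1 (0.45 and -0.40), Cox4i1 (0.57 and -0.16) and Ndufa9 (0.28 and -1.05). For Uqcrq (-0.48 and 0.37), Cox7a2l (-0.53 and 0.13) and Atp5j (-0.39 and 0.09) the order was the opposite. The second probe of Cox6a1 gave 0.42 (limma adjusted p 0.125) for the difference between lines, so that result rests on 1 of its 2 probes. Under median scaling Cox6b1 (0.56, limma adjusted p 0.144), Atp5l (0.40, limma adjusted p 0.302), Cox6a1 (0.28, limma adjusted p 0.467) and Cox4i1 (0.06, limma adjusted p 0.907) did not pass, and Ndufa9 did (0.86, limma adjusted p 0.0294). With that scaling Uqcrq (-1.32, limma adjusted p 0.00344), Cox7a2l (-1.18, limma adjusted p 0.00894) and Atp5j (-1.04, limma adjusted p 0.00779) passed with larger differences. All 8 values were thus lower than in the reported fit, and the median of all genes was -0.20. The call was lost in 8 of 21 alternatives for Uqcrq, in 9 for Cox7a2l and in 14 for Atp5j. Each line is 1 pair of cultures, so these tests measure the spread over times.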

How the results depend on the processing

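Counts of passing subunit genes kept within 1.5 times of the reported count with no background correction and with the authors' values in all 12 comparisons. Under median scaling 0 passed in the resistant cultures at 24 h, 10 within 589bm, 6 within 595sp and 8 in the difference between lines. With no filter on dim probes 0 passed in the resistant cultures at 24 h and 11 in the difference between lines. With no replicate block 0 passed in the sensitive cultures at 16 h and 24 h and in the resistant cultures at 24 h; with no time term 8 passed within 589bm, 7 within 595sp and 8 in the difference between lines. As the pairing is by cell line, the blocked values are those reported. With the dim array included 0 passed in the sensitive cultures at 16 h and 24 h and in the resistant cultures at 24 h. With each array left out in turn, 0 to 3 passed in the sensitive cultures at 8 h, 2 to 15 at 16 h and 2 to 23 at 24 h. In the resistant cultures 0 to 2 passed at 16 h and 0 to 1 at 24 h, and 0 to 3 for the response difference. Within 589bm 7 to 31 passed, within 595sp 7 to 13, and 9 to 20 in the difference between lines. A sensitivity and time left with 1 array is assumed to vary like the others. Of 785 repeats of named gene results, 612 kept direction and call, 173 kept direction and lost the call, and 0 reversed. The repeats of a comparison over time include fits without arrays of other groups, and the genes were the largest passing changes. The counts therefore overstate how far a call survives the loss of its own arrays. Where no value shows it, the cause was not tested.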
